A study of Mus musculus with 72 samples.

Results

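The comparison described here is CB-839 against vehicle after 4 h of stimulation, in 4 libraries of each kind chosen by their titles. These are 8 of the 52 RNA libraries of a mouse series of 72 samples. All 18274 genes that passed the filter on low counts, of 55487 in the count table, are members. OT-I mice, which carry a transgenic T cell receptor for the ovalbumin peptide SIINFEKL, were the source of the cells. Splenocytes with red cells lysed were set up at 2 M cells per mL in complete RPMI, with 10 ng/mL of SIINFEKL and 100 IU/mL of recombinant human IL-2. The CB-839 group received the drug at 1 µM in glutamine-containing medium. The vehicle group received solvent, and its label does not separate the 2 solvents that the protocol names, DMSO and PBS. Side groups of the same 4 h stimulation received DON at 1 µM or medium without glutamine, and CB-839 and vehicle libraries also exist at 24 h and 48 h.

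The labels call the material CD8+ T cells, while the protocol describes splenocyte cultures and gives no purification step. Libraries of a group carry the letters A to D, and no label says whether the letters mark separate animals or cultures. The p-values therefore measure the spread between these libraries, which may be technical. Age and sex of the mice were not used here. In bulk RNA of this kind, fewer cells of a type and less RNA per cell cannot be told apart.

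Cells break glutamine down to glutamate inside mitochondria. Glutamate is in turn deaminated or transaminated to 2-oxoglutarate, which enters the TCA cycle, and it is also a source of aspartate, proline, serine and glutathione. CB-839 is an inhibitor of the first step of this breakdown. DON is a glutamine analog that blocks many glutamine-using enzymes, and medium without glutamine removes the substrate altogether. When amino acids run short, uncharged tRNA activates the kinase GCN2 and translation of the transcription factor ATF4 rises, which induces genes of amino acid synthesis and uptake. Activated CD8+ T cells normally increase glutamine uptake and use.

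The 8 libraries held 32.7 to 46.1 M counts, within the range of the whole series. In a principal component analysis of the 16 libraries of 4 h, the first component held 57.8% of the variance and set the 4 glutamine-free libraries apart from the other 12. The 10 CD8 T cell markers were detected in every library and took 0.537 to 0.565% of the counts in vehicle and 0.626 to 0.658% with CB-839. This rise of the sum was not shared by all members, and Ptprc held the most counts of the 10 in every library. By edgeR, Cd8a, Lck, Cd8b1 and Ptprc were called higher. Cd3d was called lower (log2 fold change -0.21, adjusted p = 0.0464), a call lost when any 1 library was left out. Cd3g (-0.21) and Cd2 (-0.08) were also below 0 but did not pass. Markers of other splenic cells were not absent. The 16 B cell genes took 0.206 to 0.239% of the counts in vehicle and 0.215 to 0.300% with CB-839. Ighm held the most counts of these genes in every library. The CD4 T cell, NK cell, myeloid and dendritic cell lists were low, each with at most 0.0126% of the counts in these 8 libraries. The summed level of 15 B cell genes other than Ighm was 129, 252, 171 and 576 CPM (counts scaled to library size) in vehicle A to D, and 265, 353, 596 and 1141 CPM with CB-839 A to D. It was higher with CB-839 within each letter, the groups overlapped, and 0 of the 16 B cell genes, Ighm included, passed by edgeR or DESeq2, with 0 at an unadjusted p under 0.05. In the fit of the 8 libraries with the replicate block, 6 of them were called higher, where 15.4% of all genes tested were. None of the 37 genes of the mitochondrial genome had a count in any library, so transcripts of that genome were not measured.

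CB-839 changed 2282 of the 18274 genes tested, or 12.5%, by edgeR's quasi-likelihood test at a Benjamini-Hochberg adjusted p under 0.05. Of these, 1069 (5.85%) were higher and 1213 (6.64%) were lower, and which direction held more genes depended on the setting, with 834 higher and 684 lower when all 52 libraries were fitted. With the letter as a replicate block the count was 2913, or 15.9%, with 7.74% higher and 8.2% lower. Changes were small: the median size was 0.31 on the log2 scale among higher genes and 0.33 among lower genes, and 23 and 26 genes moved by at least 2-fold. The CPM of the groups did not overlap for 1002 of the higher and 1170 of the lower genes, against 3813 (20.9%) of all genes tested. Direction was the same within all 4 letters for 1065 of the higher and 1208 of the lower genes. For genes whose groups do not overlap, this is fixed by that property, so it held for at least 3813 of all genes tested. Protein-coding genes, by the RefSeq biotype, were 87.4% of the higher, 90.6% of the lower and 71.8% of all genes tested.

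**Figure D1:**
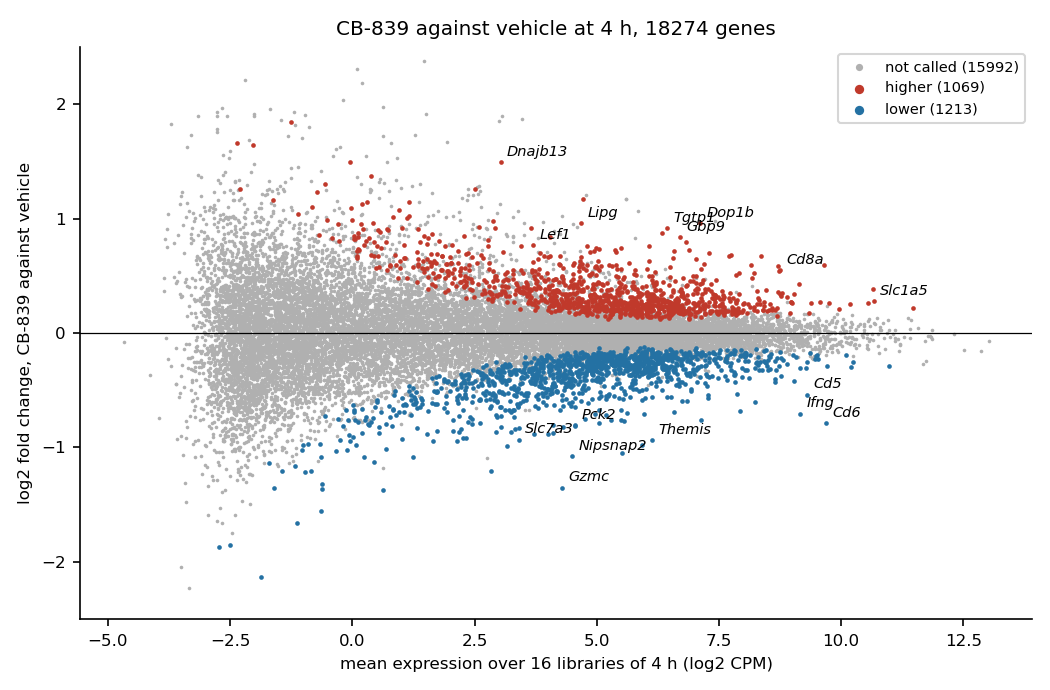
Each point is 1 of the genes tested at 4 h, and coloured points passed the adjusted p threshold of 0.05. The x axis gives the log2 of the mean CPM over the 8 vehicle and CB-839 libraries, although its printed label names 16 libraries. The y axis gives the log2 fold change of CB-839 over vehicle. Of 18274 genes, 1069 lie above and 1213 below the zero line among those that passed, most of them within 1 log2 unit, and 5 genes fall outside the plotted range.

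The 12 genes with the largest rise and the 12 with the largest fall were taken among those past the threshold with no overlap between the groups. The log2 of their mean CPM over the 8 libraries was no lower than 3. Dnajb13, an axonemal chaperone, had 3.68, 4.02, 4.52 and 4.92 CPM in vehicle A to D and 10.2, 11.4, 13.6 and 13 CPM with CB-839 A to D. It rose by 1.49 on the log2 scale (SE 0.12, adjusted p = 5.60e-07). Lipg, endothelial lipase, rose by 0.96, Dop1b by 0.96 and Col11a2, a fibrillar collagen chain, by 0.92, with adjusted p from 1.36e-07 to 4.90e-06.

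Chaf1b, a subunit of the histone chaperone that deposits histones on replicating DNA, measured 11.7, 11.2, 12.3 and 11.8 CPM in vehicle A to D and 22, 21.8, 19.9 and 20.5 CPM with CB-839. Its log2 fold change was 0.84 ± 0.07 (SE), with an adjusted p of 1.02e-06. Every CB-839 library lay above every vehicle library. Rbm15, which recruits the RNA adenosine methylation complex, measured 22.5, 21, 18.8 and 21.1 CPM in vehicle and 34.1, 35.2, 35.5 and 36.2 CPM with CB-839, a log2 fold change of 0.76 ± 0.05 (adjusted p = 1.94e-07). Mgea5, the older symbol of the gene for O-GlcNAcase, which removes O-linked N-acetylglucosamine from proteins, rose by 0.58 (adjusted p = 5.60e-07).

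Among the largest falls, Nipsnap2, a mitochondrial protein, had 28.7, 31.1, 31.1 and 31.4 CPM in vehicle and 13.7, 13.9, 15.1 and 15.1 CPM with CB-839, a log2 fold change of -1.08 ± 0.07 (adjusted p = 1.36e-07). Rnf157, a ubiquitin ligase, stood at -1.05 ± 0.13 (adjusted p = 7.16e-05), and Zswim7, a partner in homologous recombination, at -0.99 ± 0.11 (adjusted p = 1.15e-05). Ntpcr, a nucleoside triphosphatase, stood at -0.87 ± 0.08 (adjusted p = 1.28e-06). Pacsin1, a membrane-bending adaptor of endocytosis, measured 80.6, 82.5, 81.3 and 77.4 CPM in vehicle and 38.3, 47.1, 38.5 and 39.7 CPM with CB-839, a log2 fold change of -0.98 ± 0.08 (adjusted p = 5.60e-07). CB-839 libraries all lay below the vehicle libraries. Srgap3, a GTPase-activating protein, changed by -0.88 ± 0.13 on the log2 scale (adjusted p = 0.00019). Ccr8, a chemokine receptor, changed by -0.86 ± 0.12 (adjusted p = 8.25e-05), and Cmc1, an assembly factor of cytochrome c oxidase, by -0.83 ± 0.08 (adjusted p = 3.75e-06). Izumo1r, the T cell folate receptor 4, fell from 20.9 ± 1.14 to 11.4 ± 0.752 CPM (mean ± SD, n = 4; adjusted p = 7.62e-07).

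Of the genes that act directly on glutamine, glutamate and proline, some fell by small amounts. In the list of 20 enzymes and carriers of glutamine, glutamate and proline, 0 rose and 6 fell, against 5.85% and 6.64% of all genes tested, with a median of -0.16, against 0.00 over all genes tested. With the replicate block 1 rose and 6 fell, where 7.74% and 8.2% of all genes tested did. With the 8 libraries and the block 1 rose and 11 fell, where 15.4% and 14.9% of all genes tested did. With all 52 libraries in the fit 1 rose and 2 fell.

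Glud1, the mitochondrial glutamate dehydrogenase, measured 145, 149, 151 and 144 CPM in vehicle and 118, 124, 116 and 122 CPM with CB-839. It fell by 0.30 on the log2 scale (SE 0.04, adjusted p = 0.000187), with no overlap between the groups. Glul, glutamine synthetase, which makes glutamine from glutamate, changed by -0.20 ± 0.05 (adjusted p = 0.00911). Gpt2, the mitochondrial alanine transaminase, changed by -0.45 ± 0.10 (adjusted p = 0.00574), Bcat1, the cytosolic branched-chain transaminase, by -0.44 ± 0.09 (adjusted p = 0.00341), and Prodh, proline dehydrogenase, by -0.31 ± 0.07 (adjusted p = 0.00431). With all 52 libraries in the fit, Glul (adjusted p = 0.162), Gpt2 (adjusted p = 0.0971) and Prodh (adjusted p = 0.215) were not called. Glul also lost its call without the count filter (adjusted p = 0.0560). Got2, the mitochondrial aspartate transaminase, had a difference of -0.10 ± 0.06 and did not pass (adjusted p = 0.325).

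Of 23 amino acid transporters, 4 rose and 4 fell, and 2 rose without vehicle C or D or CB-839 A, B or D. Slc1a5, which carries glutamine and other neutral amino acids, measured 1528, 1446, 1413 and 1484 CPM in vehicle and 1773, 1933, 1582 and 1820.3 CPM with CB-839. Its log2 fold change was 0.28 ± 0.08 (adjusted p = 0.0305), and the call was lost in 6 of the 8 fits that left out 1 library. Slc7a5, the large neutral amino acid transporter, had a difference of -0.20 ± 0.08 that did not pass without the block (adjusted p = 0.148) and passed with the replicate block (adjusted p = 0.0411). Slc7a3, a cationic amino acid transporter, measured 14.5, 13.7, 12.2 and 15.1 CPM in vehicle and 6.96, 7.19, 6.78 and 8.14 CPM with CB-839, a log2 fold change of -0.93 ± 0.10 (adjusted p = 8.24e-06). The Slc7a3 groups did not overlap. Slc6a9, the glycine transporter, changed by -0.56 ± 0.08 (adjusted p = 0.000139), and 30.2% of its exon bases are shared with another gene, so its counts are uncertain.

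More genes of the amino acid response fell than rose with CB-839 at 4 h. Of 26 tested factors and targets, 10 fell and 2 rose, with a median of -0.18 on the log2 scale. The 4 letters gave medians of -0.37, -0.33, -0.27 and -0.12. With all 52 libraries in the fit, 6 fell. The promoters of Asns and Pck2 are shown because both genes carry, in the 250 bases before a RefSeq start, the letters TGATGNAA, a core of the composite element bound by ATF4 with C/EBP factors. Capitals mark the match, lower case the rest, and each sequence is written 5′ to 3′ on the gene's strand (RefSeq, GRCm38.p6). Asns lies on the minus strand with its window at chr6:7693210-7693459, and Pck2 on the plus strand with its window at chr14:55540016-55540265, where the match reads on the opposite strand.

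Asns: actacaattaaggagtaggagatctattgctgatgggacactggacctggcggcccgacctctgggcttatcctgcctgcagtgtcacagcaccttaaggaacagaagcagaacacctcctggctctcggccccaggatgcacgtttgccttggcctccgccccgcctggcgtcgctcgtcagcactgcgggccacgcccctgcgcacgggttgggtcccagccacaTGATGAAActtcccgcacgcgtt
Pck2: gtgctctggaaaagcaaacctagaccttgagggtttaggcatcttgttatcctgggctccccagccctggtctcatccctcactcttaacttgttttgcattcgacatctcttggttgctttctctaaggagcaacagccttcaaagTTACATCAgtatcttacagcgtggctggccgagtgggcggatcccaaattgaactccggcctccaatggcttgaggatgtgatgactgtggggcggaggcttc

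The letters TGATGNAA, searched on both strands, were found in 3.45% of 32851 promoters of this length and in 2.63% of the 11308 tested genes with a promoter entry. They were found in 7 of the 23 amino acid response genes with an entry, namely Pck2, Asns, Chac1, Atf3, Vldlr, Jdp2 and Nupr1. Among tested genes with an entry, 2.93% of 784 genes higher with CB-839 and 3.3% of 939 lower genes held them.

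Asns (chr6:7675169-7693254 in mm10), asparagine synthetase, which takes its amide nitrogen from glutamine, measured 20.3, 18.9, 19.2 and 19.1 CPM in vehicle A to D and 15.2, 15, 15 and 14.1 CPM with CB-839 A to D. The log2 fold change was -0.39 ± 0.06 (adjusted p = 0.000185), and the groups did not overlap. The call was lost with all 52 libraries in the fit (adjusted p = 0.0985). Pck2 (chr14:55540266-55551242), the mitochondrial phosphoenolpyruvate carboxykinase, measured 26.8, 28.4, 33.6 and 30.8 CPM in vehicle and 14.1, 18.7, 17.9 and 17.7 CPM with CB-839, a log2 fold change of -0.81 ± 0.09 (adjusted p = 8.69e-06). Each CB-839 library had less Pck2 than each vehicle library. Eif4ebp1, an inhibitor of cap-dependent translation, measured 60.4, 59.5, 59.5 and 64.9 CPM in vehicle and 35.9, 39.9, 32.7 and 42.2 CPM with CB-839, a log2 fold change of -0.70 ± 0.09 (adjusted p = 5.27e-05). Cth, which makes cysteine from cystathionine, was low and fell from 1.12 ± 0.251 to 0.634 ± 0.0663 CPM (mean ± SD, n = 4; adjusted p = 0.005), a call also lost with all 52 libraries (adjusted p = 0.0677). Atf4 itself measured 536, 539, 531 and 530.1 CPM in vehicle and 503, 542, 474 and 519 CPM with CB-839, and its difference of -0.07 ± 0.06 did not pass (adjusted p = 0.579).

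Of 19 serine and one-carbon enzymes, several of them ATF4 targets, 6 fell, 0 rose and 13 did not pass, and 11 differences were negative. Psat1, the transaminase of serine synthesis that uses glutamate, changed by -0.43 ± 0.06 (adjusted p = 0.000191). Phgdh, the entry enzyme of that pathway, changed by -0.39 ± 0.08 (adjusted p = 0.00249). Mthfd2, a mitochondrial folate enzyme, changed by -0.29 ± 0.06 (adjusted p = 0.00497). Of 23 cytosolic tRNA synthetase genes and their scaffold, 5 fell and 1 rose, and 3 fell without vehicle A, vehicle D or CB-839 C.

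**Figure D2:**
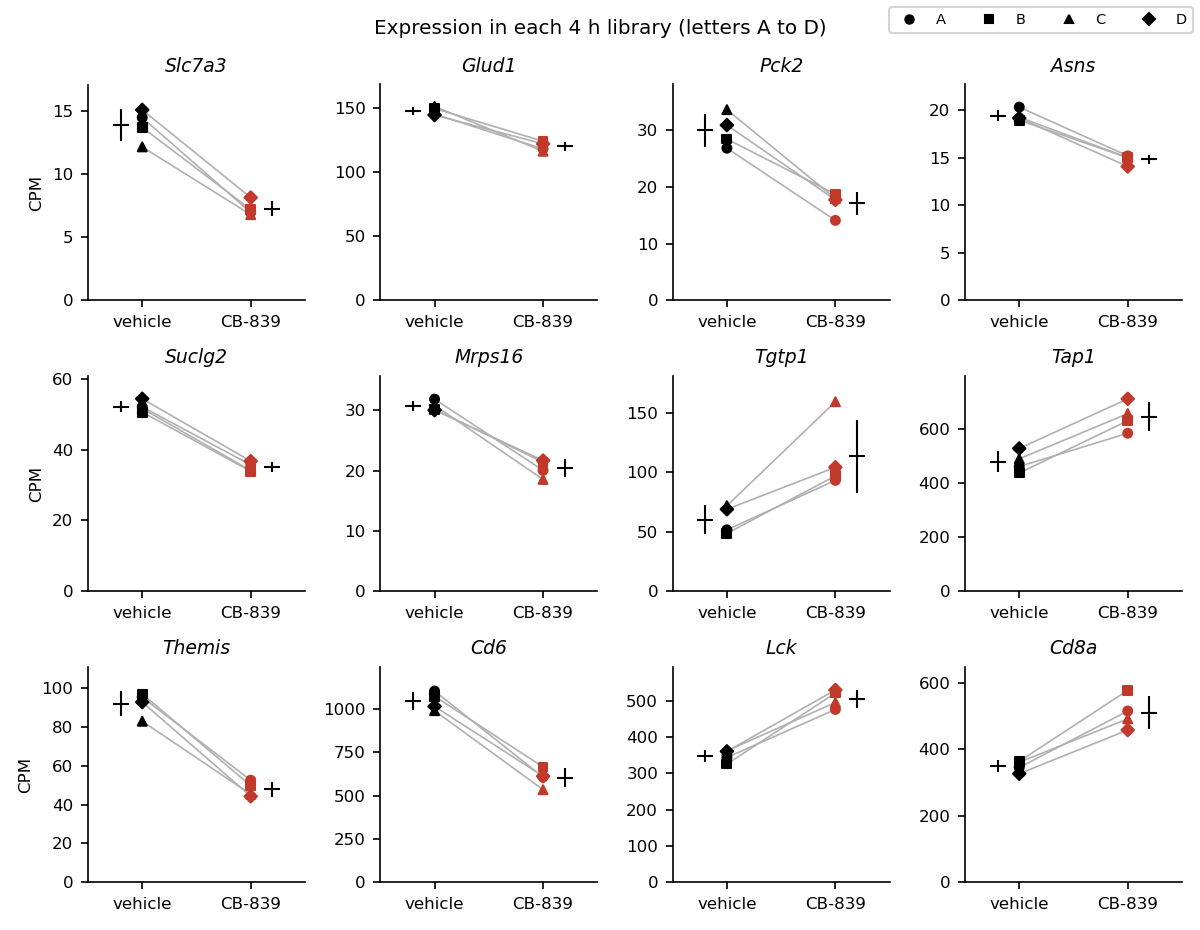
Each panel shows 1 gene with CPM on a linear y axis that starts at 0, the 4 vehicle and 4 CB-839 libraries of 4 h as points, a marker shape and a grey line for each letter, and the group mean ± SD beside them. Slc7a3, Asns and Pck2 are lower in all 4 CB-839 libraries, and Lck and Cd8a are higher in all 4.

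Nuclear genes of mitochondrial energy metabolism that passed the test were mostly lower with CB-839. In the TCA cycle and pyruvate entry, 10 of 32 genes fell and 1 rose (median -0.10). For subunits and assembly factors of respiratory complex I, which passes electrons from NADH to ubiquinone, 12 of 47 fell and 0 rose (median -0.12). Among 77 mitochondrial ribosomal protein genes, 19 fell and 3 rose (median -0.06), and 11 to 12 fell without vehicle A, vehicle B or CB-839 C. For mitochondrial tRNA synthetases, 6 of 17 fell and 0 rose. Complexes III and IV had 6 of 34 lower and 1 higher, with 1 to 2 lower when vehicle A, B or D or CB-839 A or C was left out, and ATP synthase had 3 of 19 lower. The ATP synthase count was 0 without vehicle A, without the count filter or with all 52 libraries, and 1 without vehicle B or D or CB-839 C or D. Cytosolic ribosomal protein genes had 2 of 85 lower and 0 higher, 7 lower and 2 higher with the replicate block, and 0 lower without vehicle A or B or CB-839 A or C. With all 52 libraries in the fit, 5 TCA, 6 complex I and 8 mitochondrial ribosomal genes fell.

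Suclg2, a subunit of the GTP-forming succinyl-CoA ligase, measured 52, 50.6, 51.6 and 54.3 CPM in vehicle and 35.7, 33.9, 34.1 and 36.7 CPM with CB-839. Its log2 fold change was -0.57 ± 0.06 (adjusted p = 4.10e-06), with every CB-839 library below every vehicle library. Fh1, fumarate hydratase, changed by -0.34 ± 0.05 (adjusted p = 0.000291), and Sdha, the flavoprotein subunit of succinate dehydrogenase, by -0.29 ± 0.05 (adjusted p = 0.000342). Pdk1, a kinase that inhibits pyruvate dehydrogenase, was the member that rose: it measured 25.8, 25.7, 27.6 and 29.5 CPM in vehicle and 33.7, 33.9, 34.5 and 35.4 CPM with CB-839, a difference of 0.34 ± 0.06 (adjusted p = 0.00106).

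Ndufa8, an accessory subunit of complex I, measured 60.5, 59.6, 61.6 and 57 CPM in vehicle and 42.6, 45.2, 38.9 and 45.6 CPM with CB-839, a difference of -0.47 ± 0.06 (adjusted p = 3.70e-05). Its groups did not overlap. Ndufb9, another accessory subunit, changed by -0.36 ± 0.05 (adjusted p = 7.13e-05). Cox18, which inserts a cytochrome c oxidase subunit into the inner membrane, changed by -0.64 ± 0.07 (adjusted p = 1.77e-05). Of the mitochondrial ribosome, Mrps16 changed by -0.59 ± 0.06 (adjusted p = 5.54e-06) and Mrpl17 by -0.43 ± 0.07 (adjusted p = 0.000322). Rars2, the mitochondrial arginyl-tRNA synthetase, changed by -0.52 ± 0.06 (adjusted p = 1.59e-05). Iars2, its isoleucyl counterpart, changed by -0.57 ± 0.05 (adjusted p = 1.48e-06), with 24.2% of its exon bases shared with another gene. Spg7, a protease of the inner membrane, and Phb, a prohibitin, changed by -0.49 ± 0.06 and -0.46 ± 0.07 (adjusted p = 3.60e-05 and 0.000321).

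Most guanylate-binding protein and immunity-related GTPase genes rose with CB-839. These enzymes are induced by interferons and attack the membranes around intracellular pathogens. Of 18 tested, 11 rose and 0 fell, the median was 0.59, and all 18 differences were positive. With the replicate block 17 rose. With the 8 libraries and the block all 18 rose, where 15.4% of all genes tested did. The count was 4 without vehicle A or vehicle B and 5 without CB-839 C or CB-839 D, 5 without the count filter and 7 with the 8 libraries alone. Medians within letters A to D were 0.56, 0.60, 0.71 and 0.48.

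The promoters of Tgtp1, Irgm1 and Gbp7 are shown because each holds the letters GAAANNGAAA, a core of the element bound by interferon regulatory factors. Capitals mark the match and each sequence runs 5′ to 3′ on the gene's strand (RefSeq, GRCm38.p6). The windows are chr11:48992247-48992496 (minus strand), chr11:48871421-48871670 (minus strand, 2 overlapping matches) and chr3:142530086-142530335 (plus strand, with the match on the opposite strand). RefSeq starts can differ from the annotation behind the counts, so the Asns window overlaps the annotated gene and the Tgtp1 window lies inside it.

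Tgtp1: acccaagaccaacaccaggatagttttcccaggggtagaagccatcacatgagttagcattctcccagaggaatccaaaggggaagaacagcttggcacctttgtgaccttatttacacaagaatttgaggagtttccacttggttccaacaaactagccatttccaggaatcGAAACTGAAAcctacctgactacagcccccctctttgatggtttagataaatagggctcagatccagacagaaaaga
Irgm1: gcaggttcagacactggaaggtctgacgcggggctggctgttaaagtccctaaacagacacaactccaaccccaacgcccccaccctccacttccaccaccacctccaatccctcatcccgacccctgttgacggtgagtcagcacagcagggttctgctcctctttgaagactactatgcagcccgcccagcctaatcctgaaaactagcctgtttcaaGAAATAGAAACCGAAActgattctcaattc
Gbp7: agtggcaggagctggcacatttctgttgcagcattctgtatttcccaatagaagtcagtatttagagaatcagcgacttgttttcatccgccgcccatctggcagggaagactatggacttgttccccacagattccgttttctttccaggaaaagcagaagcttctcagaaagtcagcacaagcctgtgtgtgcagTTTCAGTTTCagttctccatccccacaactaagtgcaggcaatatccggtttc

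GAAANNGAAA, searched on both strands, was found in 2.98% of 32851 promoters of this length, and in 9 of the 10 GTPase genes with an entry. Among tested genes with an entry, it was found in 3.39% of 11308, in 5.49% of the 784 genes higher with CB-839 and in 1.60% of the 939 lower genes. By list, it was found in 13 of 29 interferon-stimulated genes, 3 of 14 MHC class I genes and 2 of 23 amino acid response genes with an entry.

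Tgtp1 (chr11:48985327-48994172) measured 51.7, 48.7, 71.9 and 69 CPM in vehicle A to D and 93.3, 97, 159 and 104 CPM with CB-839 A to D. Its log2 fold change was 0.91 ± 0.20 (adjusted p = 0.0071), and its near-identical neighbour Tgtp2 stood at 0.87 ± 0.16 (adjusted p = 0.00207). Reads may have been split between these neighbours, so each value is uncertain. Irgm1, which restrains the other family members, measured 141, 144, 183 and 194 CPM in vehicle and 216, 234, 315 and 294 CPM with CB-839, a difference of 0.68 ± 0.16 (adjusted p = 0.00972). Gbp7 measured 65.9, 71.7, 99.3 and 97.8 CPM in vehicle and 114, 118, 189 and 158 CPM with CB-839, a difference of 0.79 ± 0.21 (adjusted p = 0.0233). Gbp9 changed by 0.84 ± 0.20 (adjusted p = 0.0159) and Ifi47 by 0.59 ± 0.10 (adjusted p = 0.000695). Calls for Gbp7 and Gbp9 were lost without vehicle A, vehicle B, CB-839 C or CB-839 D, where their adjusted p was 0.0503 to 0.0820. Both were also lost with the 8 libraries alone (adjusted p = 0.0539 and 0.0599), and Gbp7 without the count filter (adjusted p = 0.0705).

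The summed level of the 18 GTPases was 1861, 1938, 2529 and 2520 CPM in vehicle A to D and 2785, 3004, 4136 and 3570 CPM with CB-839 A to D. The lowest CB-839 library lay above the highest vehicle library. The 16 B cell genes were also all positive (median 1.11, 0 called), although Ighm was at 0.003. Of 9 myeloid genes, 8 were positive (median 0.94, 0 called by edgeR or DESeq2, 2 at an unadjusted p under 0.05). Without CB-839 C the myeloid median was 0.09. With the 8 libraries and the replicate block 4 of the 9 were called higher, where 15.4% of all genes tested were. All tested markers of NK cells (7), dendritic cells (6) and CD4 T cells (5) were positive too, with 1 call, in the dendritic cell list. Within each letter, the summed levels of the GTPases and of the 15 B cell genes other than Ighm were both higher with CB-839. Myeloid markers took 0.00145 to 0.00430% of counts in vehicle and 0.00153 to 0.0126% with CB-839, and the myeloid marker Ly6g was at 0 counts in vehicle A, B and D and CB-839 B. The part of RNA from these other cells in the differences of the GTPases, antigen presentation genes and other interferon-stimulated genes was not tested.

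Antigen presentation genes moved in the same direction, with 7 of 16 higher, 0 lower and a median of 0.20. Without vehicle A, CB-839 B or CB-839 D, 4 were higher. Tap1, a subunit of the peptide transporter, measured 460.3, 436, 489 and 527 CPM in vehicle and 583, 629, 656 and 709.9 CPM with CB-839, a difference of 0.43 ± 0.08 (adjusted p = 0.00171). Tap2 changed by 0.50 ± 0.10 (adjusted p = 0.00296), and Nlrc5, the transactivator of MHC class I genes, by 0.36 ± 0.07 (adjusted p = 0.00181). Tapbp, which loads peptide, changed by 0.42 ± 0.10 (adjusted p = 0.00945), and 29% of its exon bases are shared with another gene. Its call was lost without the count filter (adjusted p = 0.0603).

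Of 40 other interferon-stimulated genes, 3 rose and 0 fell, although 35 of the differences were positive and the median was 0.38. With the replicate block 18 rose and 1 fell. With the 8 libraries and the block 30 rose and 1 fell, where 15.4% and 14.9% of all genes tested did. With all 52 libraries 6 rose, and by DESeq2 5. Ifih1, an RNA sensor, changed by 0.67 ± 0.19 (adjusted p = 0.0342), and lost its call without vehicle A, B or D or CB-839 B or C. Its call was also lost without the count filter and with the 8 libraries alone. Ifi35 changed by 0.27 ± 0.06 (adjusted p = 0.00742). Bst2, which tethers budding virions, changed by 0.27 ± 0.06 (adjusted p = 0.00761). Ifi35 and Bst2 were not called with all 52 libraries (adjusted p = 0.0589 and 0.361). Apol7e, an apolipoprotein L family gene outside that list, rose by 0.76 (adjusted p = 0.00139).

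Genes that respond to the T cell receptor changed in both directions. Immediate early and feedback genes had 14 of 37 higher, 2 lower and a median of 0.20, and 8 to 9 higher without vehicle A, B or C or CB-839 D. Dusp6, a phosphatase that turns off ERK, measured 35.5, 37.2, 37.4 and 36.5 CPM in vehicle and 49.8, 57.1, 53.5 and 56.1 CPM with CB-839, a difference of 0.56 ± 0.06 (adjusted p = 1.12e-05). Zfp36l2, which destabilises AU-rich mRNA, changed by 0.50 ± 0.06 (adjusted p = 2.29e-05). Rcan1, an inhibitor of calcineurin, was 1 of the 2 lower genes, at -0.63 ± 0.08 (adjusted p = 5.79e-05).

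Of 36 genes of the receptor complex and proximal signaling, 9 rose and 4 fell. Themis (chr10:28668360-28883818), an adaptor of receptor signaling, measured 95.2, 96.8, 82.8 and 92.6 CPM in vehicle A to D and 52.5, 49.7, 45.3 and 44.2 CPM with CB-839 A to D. Its log2 fold change was -0.94 ± 0.07 (adjusted p = 1.68e-07), and the groups did not overlap. Cd6, a scaffold that tunes receptor signaling, measured 1101, 1071, 988 and 1013 CPM in vehicle and 606, 665, 533 and 611 CPM with CB-839, a difference of -0.79 ± 0.08 (adjusted p = 3.52e-06). Cd5, an inhibitory surface receptor, changed by -0.54 ± 0.07 (adjusted p = 3.59e-05). Lck, the kinase that phosphorylates the receptor complex, measured 344, 326, 362 and 361 CPM in vehicle and 476, 521, 495 and 529.7 CPM with CB-839, a difference of 0.54 ± 0.08 (adjusted p = 0.000125).

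Cd8a, the co-receptor chain, rose from 349.7 ± 17.2 to 511 ± 50.4 CPM (mean ± SD, n = 4; adjusted p = 2.94e-05). Cd44, an adhesion receptor that increases on activated cells, measured 119.6, 115, 121 and 119.7 CPM in vehicle and 68.1, 71.2, 75 and 80.8 CPM with CB-839, a difference of -0.69 ± 0.06 (adjusted p = 1.83e-06). Every CB-839 library had less Cd44 than every vehicle library. Tnfsf9, the ligand of 4-1BB, changed by -0.61 ± 0.11 (adjusted p = 0.000877), and Cd27, a costimulatory receptor of naive and memory cells, by 0.59 ± 0.06 (adjusted p = 6.29e-06). Early activation genes without a call were Cd69, at 0.11 ± 0.07 (adjusted p = 0.44), Il2ra, at -0.03 ± 0.05 (adjusted p = 0.819), and Myc, at 0.06 ± 0.08 (adjusted p = 0.741).

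Transcription factors of effector differentiation had 10 of 35 higher and 4 lower, and 2 lower without vehicle A. Naive and memory genes had 4 of 28 higher and 1 lower, and 4 higher and 4 lower with the replicate block. Of these 28 differences, 14 were positive and 14 negative, with a median of -0.01, so the list as a whole did not shift. Lef1, a factor of naive and memory cells, measured 10.9, 8.21, 9.23 and 10.2 CPM in vehicle and 17.1, 15.1, 17.4 and 15.9 CPM with CB-839, a difference of 0.77 ± 0.10 (adjusted p = 8.26e-05). Tcf7, its partner in those cells, measured 32.3, 28.9, 38.3 and 38.8 CPM in vehicle and 50.4, 46.1, 53.2 and 54.2 CPM with CB-839, a difference of 0.56 ± 0.13 (adjusted p = 0.0121). For both genes the CB-839 libraries lay above the vehicle libraries. Gata3, a factor of T cell development and type 2 responses, changed by -0.65 ± 0.08 (adjusted p = 2.29e-05). Runx1 changed by 0.39 ± 0.05 (adjusted p = 8.98e-05), and Ikzf1, the lymphoid factor Ikaros, by 0.32 ± 0.05 (adjusted p = 0.000314).

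Cytotoxic granule genes were mixed: 3 of 17 rose and 4 fell. Gzmc, granzyme C, measured 33.5, 25.5, 26.4 and 26.6 CPM in vehicle A to D and 11.3, 11.8, 9.15 and 11.7 CPM with CB-839 A to D, a difference of -1.35 ± 0.15 (adjusted p = 2.13e-05). Gzmb, granzyme B, measured 278, 274, 238 and 241 CPM in vehicle and 226, 221, 172 and 174 CPM with CB-839, and its difference of -0.38 ± 0.16 did not pass (adjusted p = 0.176) although the groups did not overlap. It passed with the 8 libraries alone (adjusted p = 0.0438) and with the 8 libraries and the replicate block (adjusted p = 1.00e-06). Rab27a, which docks granules at the membrane, changed by -0.54 ± 0.06 (adjusted p = 2.56e-05), and Ctsw, a protease of killer cells, by -0.59 ± 0.08 (adjusted p = 0.000146). Prf1, perforin, had a difference of 0.22 ± 0.12 that did not pass without the block (adjusted p = 0.296) and passed with the replicate block (adjusted p = 0.00611).

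Of 23 effector cytokine genes, 5 fell and 1 rose, with 3 lower without vehicle A, B or C or CB-839 A or D and 2 without the count filter. Ifng, interferon gamma, measured 701, 839, 717 and 584 CPM in vehicle and 411, 558, 419 and 356 CPM with CB-839, a difference of -0.70 ± 0.16 (adjusted p = 0.00739), and 25.9% of its exon bases are shared with another gene. Il2 changed by -0.45 ± 0.11 (adjusted p = 0.0104), and Tnf by 0.31 ± 0.07 (adjusted p = 0.0086). The Il2 call was lost without the count filter (adjusted p = 0.0532). Among 38 cytokine receptor and signaling genes, 5 rose and 5 fell, with 2 to 3 lower when any of the 8 libraries other than CB-839 C was left out. Il6ra changed by 0.63 ± 0.07 (adjusted p = 8.69e-06) and Il15ra by 0.38 ± 0.07 (adjusted p = 0.000833), while the kinase gene Tyk2 changed by -0.36 ± 0.07 (adjusted p = 0.00183) and Stat5a by -0.32 ± 0.06 (adjusted p = 0.00244).

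Genes of the BCL2 family and death receptors had 10 of 32 higher and 2 lower, with a median of 0.22, and 6 higher without vehicle B. Fasl, the ligand of the death receptor FAS, measured 5.06, 5.02, 4.79 and 4.75 CPM in vehicle and 10.1, 11.4, 8.74 and 8.57 CPM with CB-839, a difference of 0.98 ± 0.11 (adjusted p = 1.95e-05). Bcl2l11, which encodes the pro-death protein BIM, measured 126, 113, 114 and 128 CPM in vehicle and 189, 198, 182 and 209.5 CPM with CB-839, a difference of 0.70 ± 0.05 (adjusted p = 3.06e-07). Mcl1, a pro-survival member, changed by 0.35 ± 0.05 (adjusted p = 0.000103).

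ER chaperones and unfolded protein response genes had 8 of 26 lower and 2 higher, with 4 to 5 lower when vehicle A, vehicle B or CB-839 A, C or D was left out. Pdia3, a disulfide isomerase of glycoprotein folding, changed by -0.36 ± 0.06 (adjusted p = 0.000936), Xbp1, a transcription factor of this response, by -0.35 ± 0.07 (adjusted p = 0.00283), Calr, a lectin chaperone, by -0.29 ± 0.07 (adjusted p = 0.00643), and the sensor Atf6 by 0.24 ± 0.05 (adjusted p = 0.00462). Demethylases that use 2-oxoglutarate had 3 of 25 higher and 3 lower, and 1 lower without vehicle B or C, CB-839 A, C or D, or the count filter. Fto, an RNA demethylase, changed by -0.53 ± 0.09 (adjusted p = 0.000867), and Tet3, a DNA demethylase, by 0.33 ± 0.06 (adjusted p = 0.00102). In glycolysis, 3 of 23 were higher and 1 lower (4 and 4 with the replicate block). Ldhb, a lactate dehydrogenase subunit, changed by -0.51 ± 0.13 (adjusted p = 0.0167), a call lost without vehicle C, CB-839 B or the count filter.

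Several lists showed few or no calls in the 16-library fit without the block. In nucleolar ribosome biogenesis 1 of 40 genes passed, in purine synthesis and salvage 1 of 22, and in cholesterol synthesis, uptake and efflux 2 of 31, with 0 of 31 without vehicle A or B or CB-839 D. With the replicate block these were 3, 3 and 3. In DNA replication and mitosis, 0 of 34 passed by edgeR or DESeq2, with 2 at an unadjusted p under 0.05. Replication-dependent histones had 0 of 31 by both tools, with 2 at an unadjusted p under 0.05. In the fit without the block, these shares lie below the 12.5% of all genes tested. With the 8 libraries and the block, 30.2% of all genes tested passed. There, ribosome biogenesis had 6 higher and 7 lower, purine genes 2 and 5, and cholesterol genes 9 and 3. Replication and mitosis genes had 3 and 4 there, and 1 and 1 with the 8 libraries alone. Histones had 1 of 25 higher there, and 2 of 31 with all 52 libraries. Chemokines had 0 of 13 by edgeR and 1 by DESeq2, with 4 at an unadjusted p under 0.05, but 1 rose and 4 fell with the replicate block, against 15.9% of all genes.

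**Figure D3:**
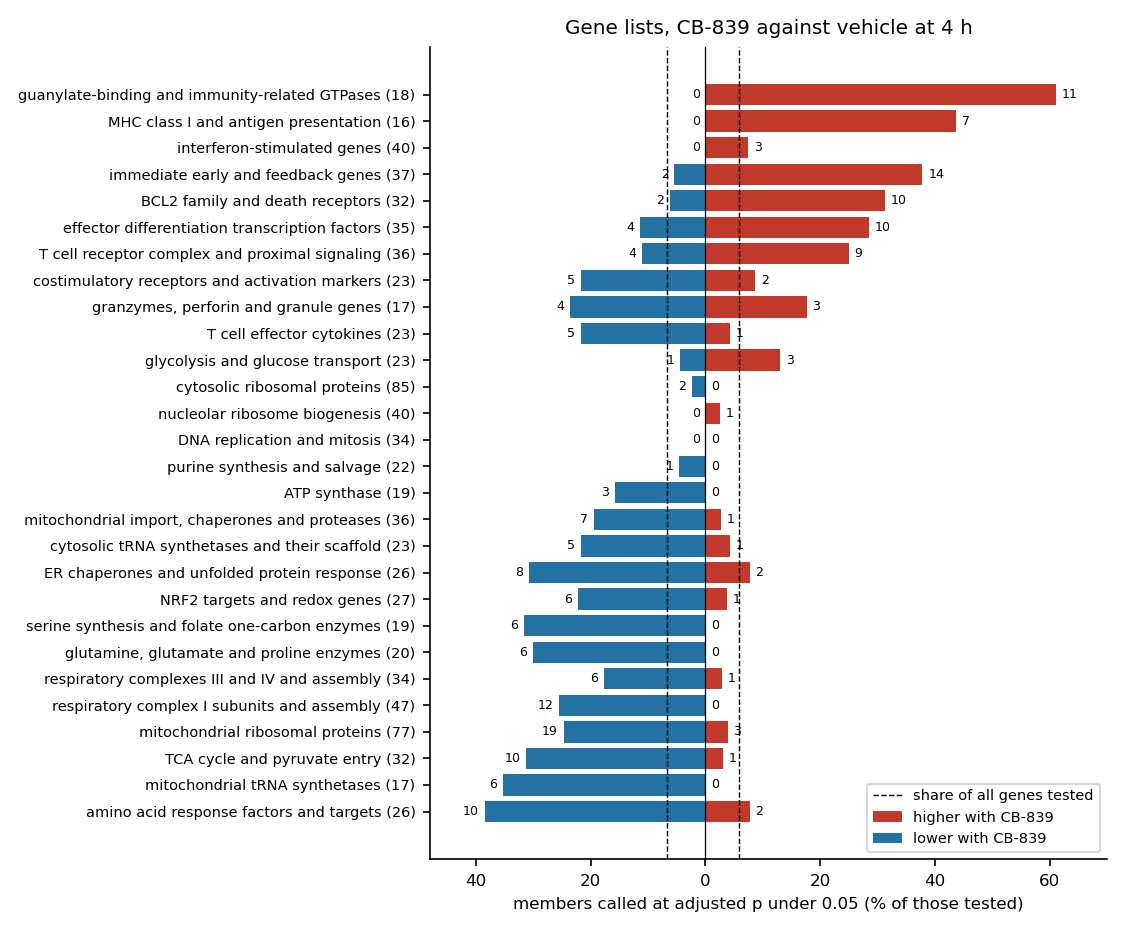
Bars show the percentage of tested members of each list that passed the adjusted p threshold at 4 h, red to the right for higher and blue to the left for lower with CB-839, with the member counts printed, the number tested in parentheses, and dashed lines at the shares of all genes tested. The GTPases reach 11 of 18 higher and 0 lower, and the amino acid response list 10 of 26 lower and 2 higher.

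The other treatments of 4 h share the vehicle libraries with CB-839, so values are given side by side and the direct contrasts carry the test. Against DON, 2922 genes (16%) differed, 1521 (8.32%) higher and 1401 (7.67%) lower with CB-839. Fitted with all 52 libraries, that split was 2387 higher and 569 lower. Lower genes were in the majority with library totals only (1479 higher, 1970 lower), with the 8 libraries alone (1200 and 1473), with these and the replicate block (1576 and 1774) and without DON A (1649 and 1841). DON against vehicle gave 0 calls by edgeR, with 1862 genes at an unadjusted p under 0.05, and 18 by DESeq2. Against glutamine-free medium, 5728 genes (31.3%) differed, 3379 (18.5%) higher and 2349 (12.9%) lower with CB-839. Fitted with all 52 libraries, that split was 4309 higher and 1336 lower. Glutamine-free medium against vehicle changed 6866 genes (37.6%), with 16.2% higher and 21.4% lower.

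Amino acid response genes differed strongly between the drug and glutamine-free medium. Of the 26 genes, 23 were higher and 0 lower in glutamine-free medium against vehicle, with a median of 1.74, where CB-839 had 2 higher and 10 lower. Asns measured 82.9, 72.5, 70.5 and 76.9 CPM in glutamine-free A to D, so CB-839 minus glutamine-free was -2.35 ± 0.06 (adjusted p = 7.87e-15). Pck2 measured 143, 146, 141 and 157 CPM there, and the direct difference was -3.10 ± 0.09 (adjusted p = 4.12e-14). Slc7a3, with 75.3, 63.2, 57.1 and 77.4 CPM, differed by -3.23 ± 0.10 (adjusted p = 1.25e-13). For these 3 genes, all CB-839 libraries lay below all glutamine-free libraries.

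Against vehicle, DON gave Asns 0.06 ± 0.06 (adjusted p = 0.75) and Pck2 -0.15 ± 0.08 (adjusted p = 0.547), and CB-839 minus DON was -0.45 ± 0.06 (adjusted p = 3.37e-05) and -0.66 ± 0.09 (adjusted p = 4.51e-05). Cd8a measured 133 ± 5.82 CPM in glutamine-free medium (mean ± SD, n = 4), and CB-839 minus glutamine-free was 1.94 ± 0.07 (adjusted p = 6.87e-13). Izumo1r was -0.88 with CB-839 and 0.58 in glutamine-free medium, each against vehicle, and the direct difference was -1.46 ± 0.07 (adjusted p = 1.01e-10).

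The GTPases were higher in both settings: 16 of 18 rose in glutamine-free medium, with a median of 1.29 against 0.59 with CB-839. Tgtp1 measured 156, 153, 169.6 and 172 CPM there, and CB-839 minus glutamine-free was -0.52 ± 0.19 (adjusted p = 0.0572). Tgtp1 under DON stood at -0.01 ± 0.20 against vehicle (adjusted p = 0.996), and CB-839 minus DON was 0.92 ± 0.20 (adjusted p = 0.00542). Among mitochondrial genes in glutamine-free medium, 33 of 47 complex I genes, 22 of 32 TCA genes and 50 of 77 mitochondrial ribosomal genes fell, against 12, 10 and 19 with CB-839. A difference in these counts was not tested. Purine and cholesterol lists had 14 of 22 and 21 of 31 genes lower in glutamine-free medium, against 1 and 0 with CB-839.

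**Figure D4:**
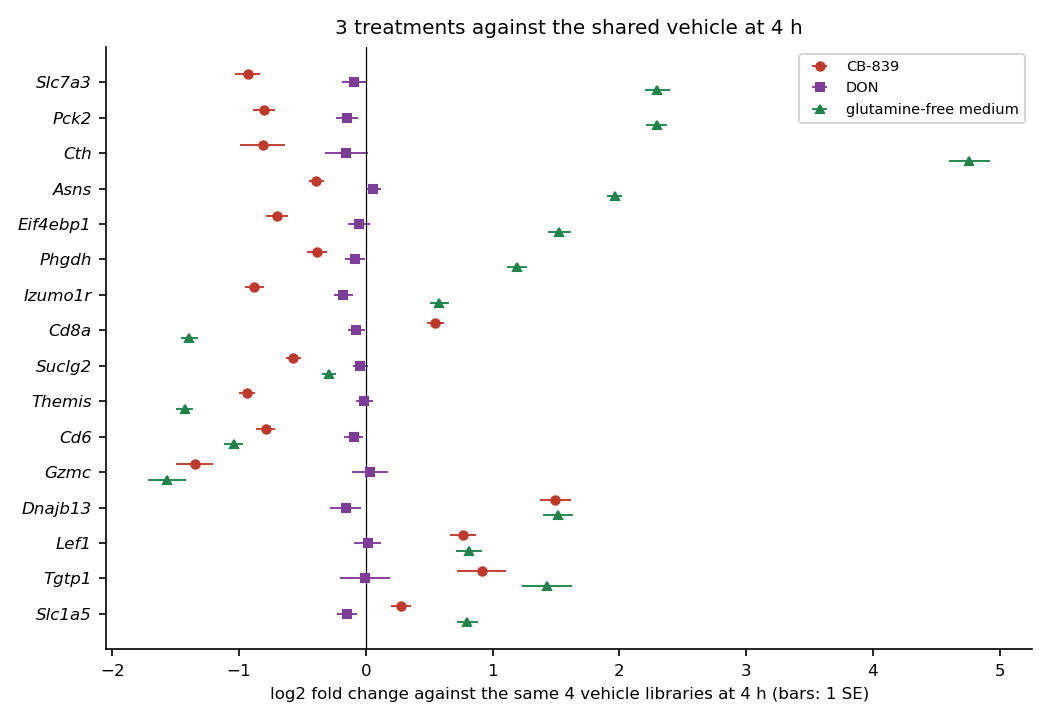
For 16 named genes the x axis gives the log2 fold change against the same 4 vehicle libraries at 4 h for CB-839 (circles), DON (squares) and glutamine-free medium (triangles), with bars of 1 SE. Asns, Pck2 and Slc7a3 lie below 0 with CB-839 and above 0 in glutamine-free medium, while Tgtp1 lies above 0 in both.

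At 24 h and 48 h the CB-839 and vehicle libraries are separate from those of 4 h. Calls at 24 h and 48 h come from a fit of the 24 vehicle and CB-839 libraries, and calls at 4 h from the 16-library fit. Each fit has its own spread estimate, so numbers of calls at 4 h and later, also within the lists, are not directly comparable. CB-839 changed 563 genes (3.19%) at 24 h, 1.45% higher and 1.73% lower, and 1988 (11.3%) at 48 h, 5.54% higher and 5.71% lower. The effect at 24 h minus that at 4 h differed from 0 for 354 genes (2%), 0.991% above 0 and 1.01% below. The 48 h effect minus the 4 h effect did so for 1394 (7.89%), 4.08% above 0 and 3.82% below. The 24 h count was 207 to 230 without vehicle A or B or CB-839 D of 4 h, or CB-839 A, B or C of 24 h, and 687 with the replicate block. The 48 h count was 2306 without vehicle C of 48 h. Of 1066 genes higher at 4 h and tested later, 864 (81.1%) had the same sign at 24 h and 666 (62.5%) at 48 h. Of 1212 lower genes, 1015 (83.7%) and 765 (63.1%) did, against 63.8% and 54.1% of all genes tested at both times. Sizes were smaller later: the median of higher genes was 0.31, 0.10 and 0.06 at 4, 24 and 48 h, and that of lower genes -0.33, -0.11 and -0.05. These genes were chosen at 4 h, so their larger values there are partly set by that choice.

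The amino acid response list had a median below 0 at 4 h and 24 h and above 0 at 48 h. It had 10 of 26 genes lower at 4 h, 15 lower at 24 h (median -0.67) and 11 higher with 0 lower at 48 h (median 0.50), and 9 genes had a higher effect at 48 h than at 4 h. Asns was -0.78 at 24 h and 0.99 at 48 h, and the 48 h effect minus the 4 h effect was 1.37 ± 0.18 (adjusted p = 4.32e-05). Pck2 was -0.96 and 1.29, with a 48 h minus 4 h difference of 2.09 ± 0.30 (adjusted p = 0.000165). Slc7a3 was -1.11 and 1.06, with a difference of 1.99 ± 0.28 (adjusted p = 0.000108), and Psat1 had 0.82 ± 0.07 (adjusted p = 1.56e-07).

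The GTPases stayed higher: 11 of 18 rose at 24 h (median 0.62) and 16 at 48 h (median 0.73), and 0 and 1 of them had an effect that differed from that of 4 h. Interferon-stimulated genes had 3 of 40 higher at 4 h and, in the 24-library fit, 12 at 24 h and 26 at 48 h. The 4 h count was 18 with the replicate block and 30 with the 8 libraries and the block. Of the 40 genes, 1 and 7 had a higher effect at 24 h and 48 h than at 4 h. Cd6 was -0.79 at 4 h and -0.07 at 24 h, and Cd5 was -0.54 and 0.21. Their 24 h minus 4 h differences were 0.72 ± 0.09 and 0.75 ± 0.07 (adjusted p = 0.000125 and 1.97e-06). Cd8a had a difference of -0.66 ± 0.08 at 24 h (adjusted p = 6.31e-05) and -0.45 ± 0.08 at 48 h (adjusted p = 0.000814). Mitochondrial ribosomal genes had 19 of 77 lower at 4 h, 1 lower and 1 higher at 24 h and 24 lower at 48 h, and 1 and 9 of them had a lower effect at 24 h and 48 h than at 4 h.

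Among the genes with the largest 4 h changes, Dnajb13 was 1.49 at 4 h, 0.03 at 24 h and 0.11 at 48 h, and Srgap3 was -0.88, 0.18 and 0.17. Time differences were ranked only among genes called at 4 h with groups apart, so their sizes are partly set by that choice. The largest of these also included Il17f, an interleukin of the IL-17 family, at -1.07 ± 0.21 for 24 h minus 4 h (adjusted p = 0.00793). Srxn1, which repairs oxidised peroxiredoxins, was another, at -1.04 ± 0.20 (adjusted p = 0.00486). Armcx4 differed by 0.81 ± 0.13 at 24 h and 0.88 ± 0.13 at 48 h, and Wnt10b, a WNT ligand, by -0.74 ± 0.11 and -1.06 ± 0.11.

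**Figure D5:**
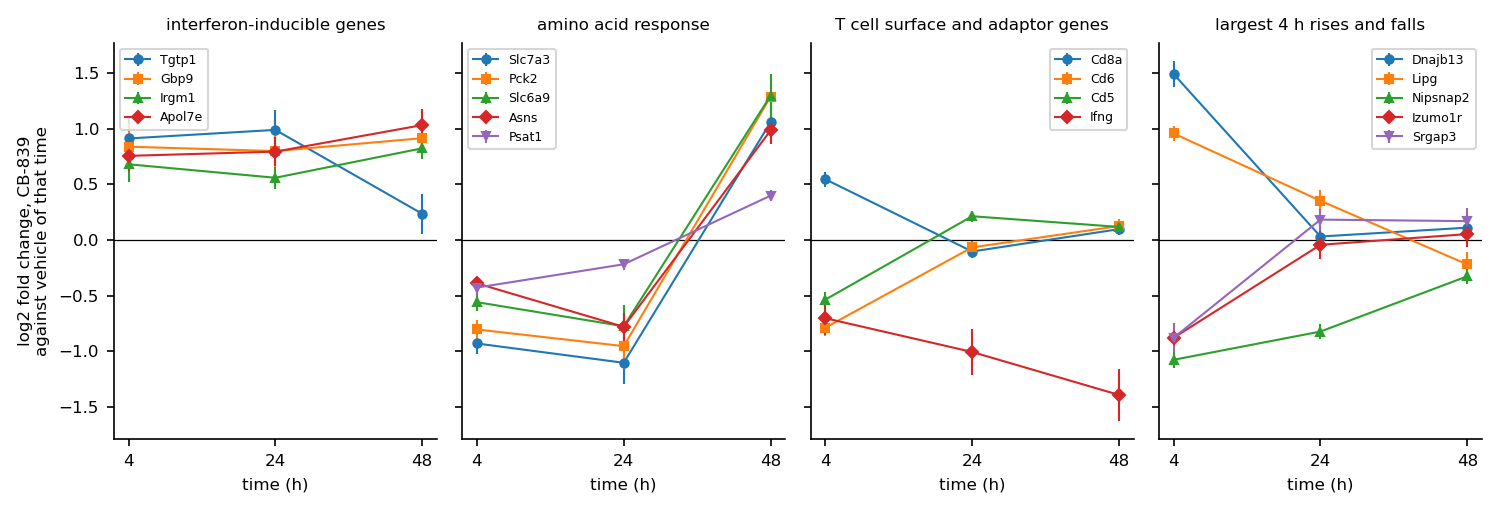
In 4 panels of named genes, lines join the log2 fold change of CB-839 over the vehicle libraries of the same time (y axis, bars of 1 SE) at 4, 24 and 48 h (x axis). Asns, Pck2 and Slc7a3 lie below 0 at 4 and 24 h and above 0 at 48 h, and Tgtp1 stays above 0.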

How the data were processed

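RNA-seq of 52 libraries was used, and the comparison rests on 8. The deposited table holds whole-number counts per gene. Per the file headers, the authors ran featureCounts 2.0.1 in paired mode over exons of GENCODE M25 (mm10), and the command sets no strand. Reads from genes that overlap, on either strand, are therefore not separable. Every count column was mapped to a library by its name. The step that removed mitochondrial-genome reads is not given in the sources used here.

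Genes were filtered by group with filterByExpr, normalised by TMM and tested with edgeR 4.0.16 (limma 3.58.1, R 4.3.3) by the robust quasi-likelihood test, with Benjamini-Hochberg adjustment at 0.05. The 16 libraries of 4 h shared 1 fit of 4 group means, so DON and glutamine-free libraries shared the spread estimate. Time differences and the calls at 24 h and 48 h used a separate fit of 24 libraries with its own spread estimate. CPM values use TMM-scaled library totals, and marker shares use the plain totals. Errors are the SD over 4 libraries or the SE of the fit. Libraries of a group differed beyond counting noise, and each was treated as 1 replicate. That spread cannot show whether they come from separate animals or cultures. The scripts were tested on simulated counts. Depth (32.7 to 46.1 M counts) limits mainly genes with few counts.

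Named genes were the 12 largest changes in each direction (adjusted p under 0.05, mean log2 CPM of at least 3, groups apart, no predicted gene or clone), up to 4 genes per list with the smallest adjusted p, a panel of 20 genes, not all reported here, and the 3 largest time differences in each direction. The 65 gene lists and all members were chosen with earlier results of these data known. Deviations of same-letter vehicle and CB-839 libraries correlated at 0.57 to 0.67 in all 4 letters, so the letters pair these libraries. That pairing comes from the data, not from the labels. Unlike letters were also positive for vehicle A with CB-839 B (0.42) and vehicle B with CB-839 A (0.30), and otherwise -0.45 to 0.01. Same-letter values with vehicle were 0.30, 0.48, 0.66 and 0.21 for DON A to D. For glutamine-free A to D they were 0.61, 0.07, 0.50 and -0.08. The replicate block of the shared fit uses the letter in all 4 groups, although glutamine-free B and D did not pair with vehicle. Alternatives were RLE factors, library totals, no filter, DESeq2 1.42.0, the replicate block, other sets of libraries and leaving out 1 library. Promoter sequences come from RefSeq, GRCm38.p6, matched by symbol for 11308 of the tested genes, and were read with Python 3.11.15.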

Additional observations from a re-analysis of the deposited data

Results flagged for a closer look

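Among 212 groups of 4 libraries examined, for 106 genes named in the text, 14 held a library far from the other 3 by Dixon's criterion, where chance flags about 1 in 20 groups. In vehicle, these were library A for Gzmc (33.5 CPM) and Nipsnap2 (28.7 CPM), library B for Bst2 (96.3 CPM), and library D for Izumo1r (22.6 CPM), Eif4ebp1 (64.9 CPM), Slc6a9 (21.6 CPM), Ikzf1 (412 CPM) and Mcl1 (411 CPM). With CB-839, they were library A for Rars2 (23.1 CPM), library B for Pacsin1 (47.1 CPM) and Il2 (114 CPM), and library C for Tgtp1 (159 CPM), Cd69 (877 CPM) and Cox18 (16.5 CPM).

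Other genes were marked because the effect of CB-839 at a later time differed from that at 4 h by edgeR's test of the difference itself. The values that follow are log2 effects at the later time minus those at 4 h. Differences below 0 at both times were Dnajb13 (-1.47 at 24 h, -1.39 at 48 h), Lipg (-0.61, -1.18), Wnt10b (-0.74, -1.06) and Cd8a (-0.66, -0.45). Bcl2l11 (-0.65), Il17f (-1.07) and Srxn1 (-1.04) were below 0 at 24 h. Differences above 0 at both times were Srgap3 (1.06, 1.05), Izumo1r (0.83, 0.93), Cd6 (0.72, 0.91), Cd5 (0.75, 0.65) and Armcx4 (0.81, 0.88). At 48 h, Pck2 (2.09), Slc7a3 (1.99), Slc6a9 (1.85), Asns (1.37), Psat1 (0.82) and Nipsnap2 (0.75) were above 0.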

How the results depend on the processing

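No called gene named in the text changed direction under any alternative run, but which direction held more genes did change for CB-839 against vehicle and against DON. Against vehicle, 1069 higher and 1213 lower became 834 and 684 with all 52 libraries, 736 and 729 without the count filter, 2489 and 2410 with the 8 libraries and the replicate block, 795 and 778 without vehicle A and 880 and 829 without vehicle D. Of 98 called genes named in the text, 83 kept their call and direction in every setting. The 2282 genes changed by CB-839 at 4 h were 2124 with RLE factors, 2682 with library totals only, 2414 with DESeq2 and 3048 with the 8 libraries alone. They were 1465 without the count filter, 1518 with all 52 libraries and 4899 with the 8 libraries and the replicate block; leaving out 1 library gave 1572 to 1910. With the block in the 16-library fit the count was 2913, of which 2272 were among the 2282, and among named genes it changed the call of Slc7a5 and Prf1. For CB-839 against glutamine-free medium, leaving out 1 library gave 4908 to 5969, and against DON 2172 to 3490.

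For 24 h minus 4 h, 354 genes became 170 without the filter, 694 with DESeq2, 687 with the replicate block and 131 with all 52 libraries, with 207 to 286 when 1 library was left out. For 48 h minus 4 h, 1394 genes became 846 without the filter, 793 with all 52 libraries and 2050 with the replicate block, with 975 to 2306 when 1 library was left out. The cause was not tested. Genes with few counts and small changes are limited by depth and by 4 libraries a group.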
